A study of Mus musculus with 15 samples.

Results

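The kidneys of mice given ethanol alone were compared with the kidneys of mice given carbon tetrachloride (CCl4) alone. All mice were male C57BL/6, and each library holds bulk kidney RNA. The 4 ethanol libraries, named EtOH replicates 1 to 4, came from mice injected intraperitoneally with olive oil for 6 weeks and then treated with ethanol for 4 weeks; the labels give neither the dose nor the route of the ethanol. The 4 CCl4 libraries came from mice injected intraperitoneally with CCl4 for 6 weeks. Of these, replicates 1 and 2 were taken after the 6 weeks and replicates 3 and 4 after 4 further weeks at a reduced dose, called the 6-week and the 10-week schedule here. These 8 libraries are 8 of the 14 with deposited counts, in a series of 15 samples. In addition, 3 libraries from mice given 6 weeks of olive oil are quoted as background levels and entered no test, 1 further olive oil sample is not analysed here, and the mice given both agents entered only an alternative fit of all 14 libraries. The ethanol mice and the 10-week CCl4 mice were treated for the same total time, whereas the olive oil and the 6-week CCl4 mice were not, so agent and time are partly mixed in the pooled comparison.

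CCl4 and ethanol are both substrates of the cytochrome P450 enzyme Cyp2e1. The enzyme turns CCl4 into a reactive radical that damages the liver lobule, and ethanol into acetaldehyde, with reactive oxygen as a by-product. In the kidney, Cyp2e1, most drug transporters and most conjugating enzymes are made by the proximal tubule, the segment that reclaims filtered solutes and vitamin D bound to its carrier, and which in male mice depends on androgens for part of its expression program.

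Counts in the 8 libraries summed to between 16356512 and 20807603. Levels are given in CPM, a gene's count relative to the total of its library, scaled between libraries by the trimmed mean of M values, and changes as the log2 of ethanol over CCl4 ± its standard error. A gene is called changed where edgeR's quasi-likelihood test gave a Benjamini-Hochberg adjusted p under 0.05 over the 15300 genes tested, and "rose" and "fell" are used only of called genes. The labels do not say whether mice shared a cage or a day, so p-values measure the spread between these libraries.

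Before any kidney gene is described, 3 of the 4 ethanol libraries have to be set apart for their content of adrenal RNA. The 10 adrenal cortex markers, the enzymes and receptors of steroid hormone synthesis, summed to 869, 809, 1284 and 13.1 CPM in EtOH replicates 1 to 4 and to 11.1, 12.04, 36.2 and 11.7 CPM in CCl4 replicates 1 to 4. EtOH replicates 1, 2 and 3 thus held adrenal transcripts in bulk, EtOH replicate 4 held them at the level of the olive oil libraries (11.6 to 12.3 CPM), and CCl4 replicate 3 held a trace. Cyp21a1, the steroid 21-hydroxylase of the adrenal cortex, was at 187, 182, 241 and 0 CPM after ethanol and at 0, 0.0987, 3.89 and 0.0605 CPM after CCl4. Chga, the chromogranin of adrenal medullary cells, was at 60.95, 24.96, 45.04 and 0 CPM after ethanol and at most 0.242 CPM in a CCl4 library. EtOH replicate 4 is the ethanol library without Cyp21a1 or Chga counts. It is therefore listed on its own where levels are given by library, but not where only a log2 change is given. It stood apart in another way, with 7.37, 29.9, 11.8 and 187 CPM of 6 neutrophil markers in EtOH replicates 1 to 4 and 3.22, 4.64, 42.2 and 18.3 CPM in CCl4 replicates 1 to 4. Adipocyte markers summed to 1244 CPM in EtOH replicate 1 and to 995 CPM in CCl4 replicate 3, and to between 329 and 502 CPM in the other 6 libraries. Proximal tubule markers other than Kap summed to 31663, 29362, 26279.8 and 30422 CPM after ethanol and to 29945, 30616, 28192 and 30359.6 CPM after CCl4, with overlapping groups, and were the most abundant of the marker lists.

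**Figure D1:**
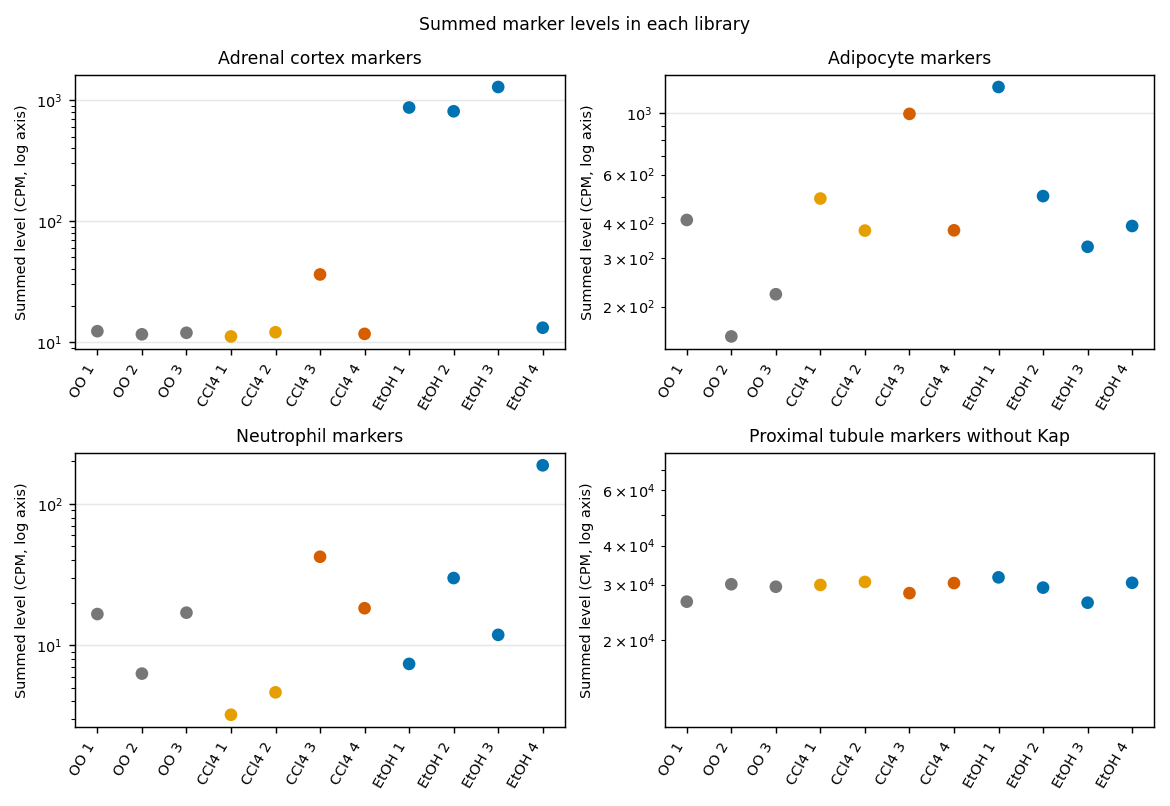
Summed CPM (log axis) of 4 marker lists in each library: olive oil (grey), CCl4 6-week (light orange, replicates 1 and 2), CCl4 10-week (dark orange, replicates 3 and 4) and ethanol (blue). Adrenal cortex markers reach 809 to 1284 CPM in EtOH replicates 1 to 3 and 13.1 CPM in EtOH replicate 4, while proximal tubule markers without Kap lie between 26279.8 and 31663 CPM in the 8 libraries compared.

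Ethanol and CCl4 kidneys differed in 218 of the 15300 genes tested, 1.42%, by edgeR's quasi-likelihood test. Of these, 93 were higher after ethanol (0.608%) and 125 lower (0.817%), with median log2 changes of 0.65 and -0.74, and 27 and 38 of them changed by more than 2-fold. All 4 ethanol libraries lay outside the range of the 4 CCl4 libraries in each of the 218 genes, whereas the groups did not overlap in 8.92% of all genes tested (4.13% with ethanol higher, 4.79% with ethanol lower). The calls were made with all 4 ethanol libraries, so this separation, EtOH replicate 4 included, is largely fixed by the choice of genes and says nothing of the part of adrenal RNA. Of the 93 higher genes 3, Peg10, Acsbg1 and Kif1a, and of the 125 lower genes 1, Dnah9, were more than 2 times as high in each of EtOH replicates 1 to 3 as in replicate 4. At an unadjusted p under 0.05 stood 2208 genes (14.4%). The shares of all genes, 0.608% higher, 0.817% lower and 14.4% at an unadjusted p under 0.05, are the background for the list counts below. The number of calls depended on the libraries: it was 97 without CCl4 replicate 4, 99 without EtOH replicate 3, 133 without CCl4 replicate 2 and 137 without CCl4 replicate 3, and between 159 and 220 without one of the other 4. A fit that also held each library's adrenal marker level called 5 genes. That level was high in EtOH replicates 1 to 3 alone, so the fit could hardly separate it from the ethanol group. Its count therefore does not measure the part of adrenal RNA in the 218 calls. EtOH replicate 4 was also fitted as the lone ethanol library, assumed to vary like the CCl4 libraries.

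**Figure D2:**
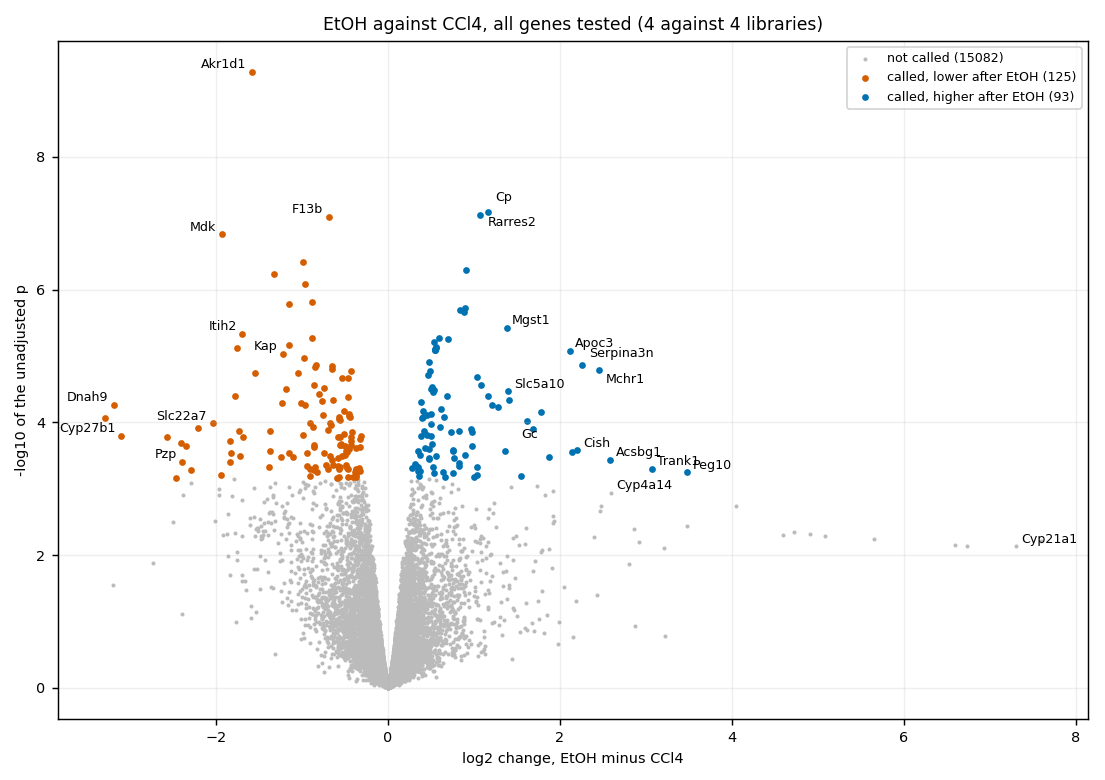
Change of every tested gene (log2, ethanol minus CCl4) against its unadjusted p (-log10, edgeR's quasi-likelihood test); blue points are the 93 genes called higher and orange points the 125 called lower after ethanol. Akr1d1 has the smallest p at a log2 change of -1.59, and the adrenal gene Cyp21a1 lies at 7.31 among the genes not called.

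Of the androgen-regulated genes of the proximal tubule, 2 were lower after ethanol. Kap, the kidney androgen-regulated protein and one of the most abundant transcripts of the male mouse kidney, stood at 9497, 12988, 9227 and 11986 CPM in EtOH replicates 1 to 4 and at 21794, 20482, 29329.9 and 30279 CPM in CCl4 replicates 1 to 4. Every ethanol library held less Kap than any CCl4 library, and EtOH replicate 4 lay among the other ethanol libraries. The log2 change was -1.23 ± 0.16 (adjusted p = 0.00475). Cyp4a12b, a fatty acid hydroxylase of the male kidney, fell from 58.3, 80.5, 77.7 and 93.3 CPM after CCl4 to 36.96, 42.8, 31.2 and 43.6 CPM after ethanol, with a log2 change of -1.01 ± 0.15 (adjusted p = 0.012). The groups were again apart, and the olive oil libraries, at 102, 141 and 111 CPM, were the highest of the 3 groups. These 2 were the called members of a list of 12 androgen-regulated genes, in which none was called higher (0.817% of all genes were called lower). Of the 12, 7 had all ethanol libraries below all CCl4 libraries, an order seen in 4.79% of all genes, and the median change was -0.84, against 0.0044 over all genes. Acsm3, a medium-chain acyl-CoA synthetase with the largest change of the list, was at 359, 557, 281 and 522 CPM after ethanol and at 806, 866, 1633 and 1927 CPM after CCl4, a log2 difference of -1.61 ± 0.36 that was not called (adjusted p = 0.0966). Against the 10-week CCl4 libraries alone, 7 of the 12 were called lower, including Acsm3 (-2.06, adjusted p = 0.00911), and against the 6-week libraries 1 was, Kap.

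Of the list of 4 genes with higher levels in female than in male mouse kidneys, 1 rose (0.608% of all genes were called higher). It was Abcc3, an export pump for glucuronide and sulfate conjugates, at 15.7, 13.6, 10.95 and 8.81 CPM after ethanol and 6.75, 5.48, 6.72 and 5.87 CPM after CCl4, a log2 change of 0.98 ± 0.18 (adjusted p = 0.0201). The lowest ethanol library, EtOH replicate 4, stayed above the highest CCl4 library. Cyp4a14, another fatty acid hydroxylase, was at 1718, 2210.03, 3031 and 1785 CPM after ethanol and 580.2, 422, 116 and 322 CPM after CCl4, groups that did not overlap, yet the spread within CCl4 was wide and the log2 difference of 2.60 ± 0.49 was not called (adjusted p = 0.063). The amino acid transporter Slc7a12 was at 123, 145, 98.96 and 97.8 CPM after ethanol and 66.6, 42.9, 18.7 and 13.4 CPM after CCl4, also without overlap and not called (1.71 ± 0.50, adjusted p = 0.185). Both passed against the 10-week CCl4 libraries alone, at 3.31 (adjusted p = 0.0363) and 2.85 (adjusted p = 0.00373). The last of the 4 list members went the other way, at -0.18 in the pooled comparison, and was not called. Kap and Cyp4a12b kept their calls in all 8 fits that left out 1 library in turn; the Abcc3 call was lost without CCl4 replicate 2 and CCl4 replicate 4 (adjusted p = 0.0651 to 0.0659).

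**Figure D3:**
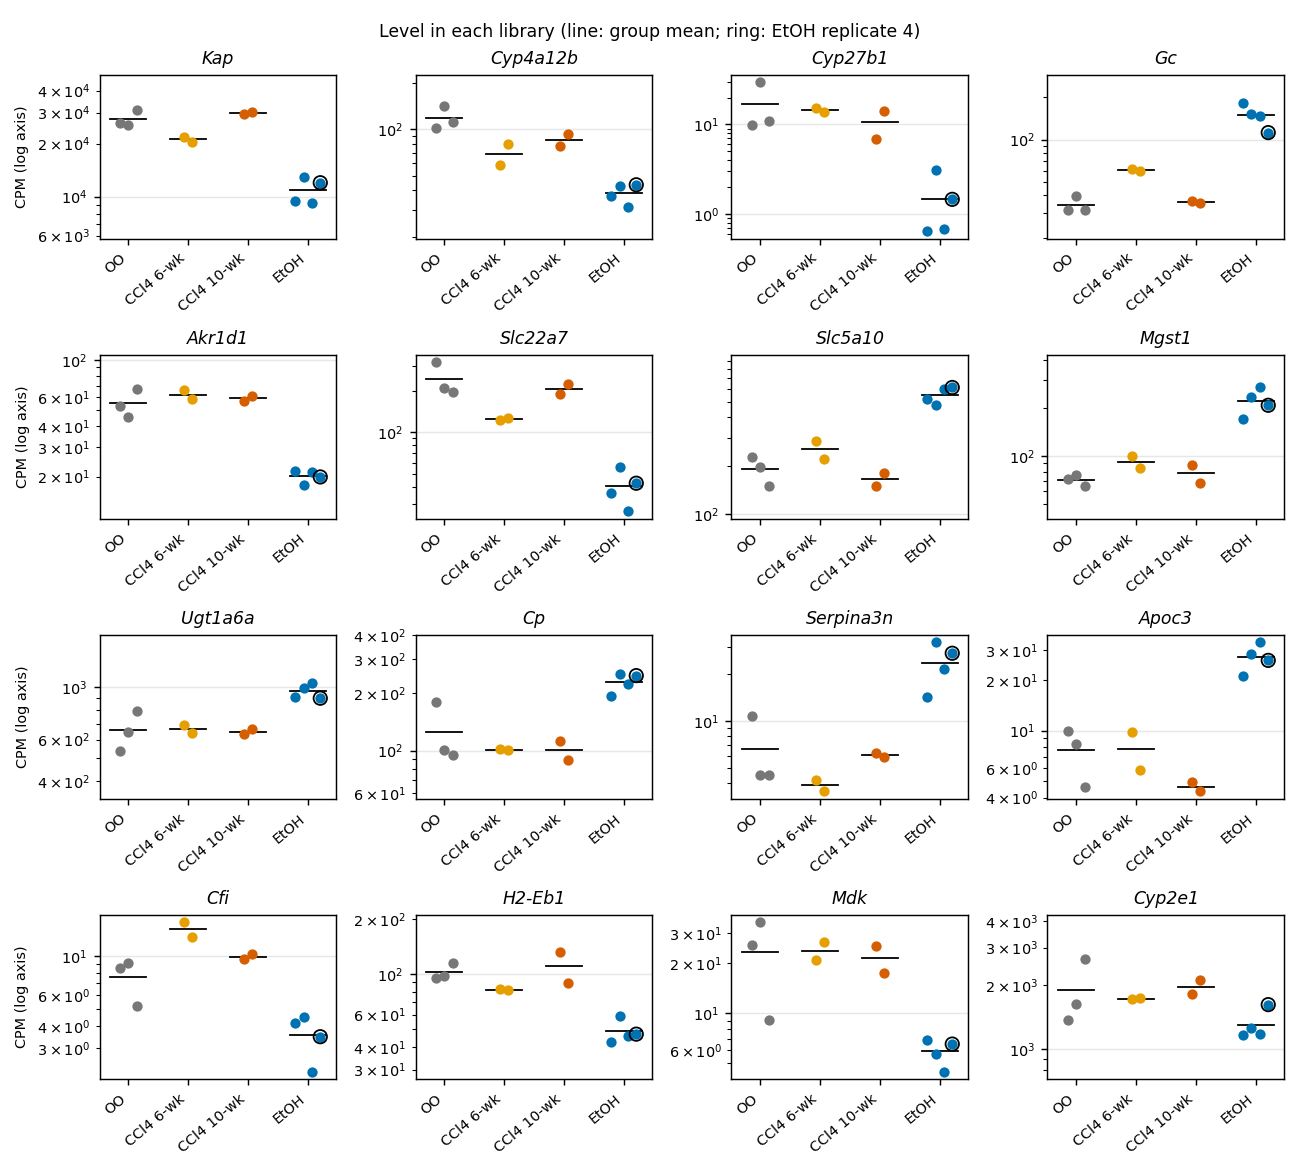
CPM (log axis) of 16 genes in each library by group: olive oil, CCl4 6-week, CCl4 10-week and ethanol; lines are group means and the ring marks EtOH replicate 4. Kap runs from 9227 to 12988 CPM after ethanol and from 20482 to 30279 CPM after CCl4, and in the 16 panels Cyp2e1 is the gene not called.

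The transcripts of Cyp27b1 and Gc, genes of vitamin D activation and transport, differed in opposite directions. Cyp27b1, the proximal tubule enzyme that makes the active hormone calcitriol, stood at 0.643, 3.101, 0.688 and 1.46 CPM after ethanol, 15.5, 13.9, 6.83 and 14.3 CPM after CCl4 and 9.77, 29.8 and 10.999 CPM after olive oil. It was low in all 4 ethanol libraries, the highest of which was under the lowest CCl4 library. The log2 change was -3.10 ± 0.49 (adjusted p = 0.0218). Gc, the plasma carrier of vitamin D that the tubule takes up with its cargo, moved the other way, at 182, 153, 148 and 112 CPM after ethanol and 61.7, 60.05, 36.4 and 35.4 CPM after CCl4, a log2 change of 1.61 ± 0.23 (adjusted p = 0.0169). The ethanol libraries were all well above the CCl4 libraries, of which the 6-week pair was higher than the 10-week pair. S100g, calbindin-D9k, a calcium-binding protein whose gene responds to calcitriol, fell from 432, 481, 368 and 326 CPM after CCl4 to 261.2, 213, 277.4 and 276.996 CPM after ethanol (-0.65 ± 0.13, adjusted p = 0.0339). Its CCl4 libraries of the 10-week schedule lay closest to the ethanol libraries. With these, 1 member rose and 2 fell of the 19 in the list of vitamin D and megalin-cubilin genes, whose median change was -0.05; the endocytic receptors Lrp2 and Cubn and the receptor Vdr were not called. Leaving out 1 library in turn, the Gc call was lost without EtOH replicate 3 (adjusted p = 0.0595). The Cyp27b1 call was lost without CCl4 replicate 2, CCl4 replicate 4, EtOH replicate 3 and EtOH replicate 4 (adjusted p = 0.063 to 0.0665). The S100g call was kept only without CCl4 replicate 4 (adjusted p = 0.0542 to 0.0787 in the others).

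Steroid and drug conjugation genes were changed in both directions, and the gene with the smallest p of all was among the lower ones. Akr1d1, the 5-beta-reductase of steroid hormones and bile acid precursors, was at 21.5, 17.9, 21.2 and 19.9 CPM after ethanol, 65.6, 58.4, 56.6 and 60.8 CPM after CCl4 and 52.7, 45.6 and 67.1 CPM after olive oil. The ethanol libraries stayed within a few CPM of each other, EtOH replicate 4 included, far below every other library. The log2 change was -1.59 ± 0.08 (adjusted p = 7.9e-06), and Akr1d1 and Rarres2 were the named genes called under every alternative run, the one with the adrenal marker level among them. The RefSeq promoter of Akr1d1 (GRCm38.p6, chr6:37529923-37530222, + strand, from 250 bases before the start of transcription to 50 after it) is shown because Akr1d1 leads the comparison. Capitals mark the matches to AGGTCA, the half-site letters of many nuclear receptors, on either strand. For this and the other promoters shown, the start with the most matches was taken where a gene had several.

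Akr1d1: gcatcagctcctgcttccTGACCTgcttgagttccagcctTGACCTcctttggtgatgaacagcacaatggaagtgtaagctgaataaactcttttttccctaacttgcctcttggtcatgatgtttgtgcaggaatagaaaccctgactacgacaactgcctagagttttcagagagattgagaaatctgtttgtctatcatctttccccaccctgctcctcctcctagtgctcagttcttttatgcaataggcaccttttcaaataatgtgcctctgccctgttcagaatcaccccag

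Both matches lie on the minus strand as TGACCT, starting 232 and 210 bases before the start. AGGTCA was found in 16.3% of all 32851 promoters of this length and in 13.3% of the 14153 of tested genes. It was found in 24 of the 116 promoters of genes called lower and in 13 of the 90 of genes called higher. The windows cover 96 of the 125 and 72 of the 93 called genes, some with several starts.

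The Ugt1a locus, which encodes enzymes that attach glucuronic acid to bilirubin, steroids and drugs, rose as one. Its 8 tested symbols share exons and hence reads, so they are a single observation, with log2 changes of 0.49 to 0.59. The symbol Ugt1a6a stood at 913, 995, 1047 and 899.8 CPM after ethanol and 689, 643, 634 and 664 CPM after CCl4 (0.55 ± 0.07, adjusted p = 0.00437), with no overlap. Ugt2b37, a glucuronosyltransferase encoded elsewhere, fell from 194, 193, 293 and 304 CPM to 92.4, 118, 92.4 and 115 CPM (-1.24 ± 0.17, adjusted p = 0.012), a change larger against the 10-week libraries (-1.52) than against the 6-week libraries (-0.89). Ugt3a1 fell by less, at -0.37 ± 0.08 (adjusted p = 0.0414). In all, 1 of the 26 tested members of the P450 and conjugation list was called higher and 3 lower, Cyp27b1 included. Ugt1a6a and Ugt2b37 were called in all 8 fits without 1 library; the Ugt3a1 call was lost in each of the 8 (adjusted p = 0.0505 to 0.115).

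Among solute carriers, the largest decrease was that of Slc22a7, the organic anion transporter OAT2. It was at 36.2, 56.2, 26.6 and 42.5 CPM after ethanol, 123, 127, 189.6 and 223 CPM after CCl4 and 322, 209 and 196 CPM after olive oil. All ethanol libraries were far below the CCl4 libraries, in which the 6-week pair was lower than the 10-week pair. The log2 change was -2.04 ± 0.28 (adjusted p = 0.0174). Slc22a18, an organic cation transporter-like protein, fell by 0.37 on the log2 scale (adjusted p = 0.0407), so that 2 of the 24 tested organic ion transporters fell and 0 rose. Of the 25 sugar and amino acid transporters tested, 2 rose and 1 fell. Slc5a10, the fructose and mannose transporter SGLT5, rose from 285, 221, 149.8 and 180.3 CPM after CCl4 to 519, 479, 601 and 615 CPM after ethanol (1.40 ± 0.19, adjusted p = 0.0097). Ethanol libraries lay above all CCl4 and olive oil libraries, the latter at 226, 197 and 149.8 CPM. Slc6a18, which takes up glycine and other neutral amino acids at the brush border, rose by 0.36 ± 0.08 (adjusted p = 0.0476) and Slc5a8, a sodium-coupled carrier of lactate and short-chain fatty acids, changed by -0.46 ± 0.07 (adjusted p = 0.00705). For Slc5a8 the 4 ethanol libraries were at 363, 396, 367 and 361 CPM and the 4 CCl4 libraries at 515, 473, 512 and 541 CPM. Slc5a10 and Slc5a8 kept their calls in all 8 fits without 1 library. The Slc22a7 call was lost without CCl4 replicate 3, EtOH replicate 1 and EtOH replicate 4 (adjusted p = 0.051 to 0.0581). The Slc22a18 call was kept only without EtOH replicate 2 (adjusted p = 0.0637 to 0.119 in the others). The Slc6a18 call was kept only without EtOH replicate 1 (adjusted p = 0.0518 to 0.142 in the others).

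Of 32 tested antioxidant and glutathione genes of the Nrf2 list, 4 rose (0.608% of all genes) and 0 fell (0.817%). The median change was 0.16 against 0.0044 over all genes, and DESeq2 called 8 higher and 1 lower. Mgst1, the microsomal glutathione transferase that protects membranes from lipid peroxides, was at 172, 236, 271.1 and 209 CPM after ethanol and 99.9, 83.9, 87.8 and 67.9 CPM after CCl4. The lowest ethanol library was far above the highest CCl4 library, and the log2 change was 1.38 ± 0.15 (adjusted p = 0.0038). Gstp1, a cytosolic glutathione transferase, rose from 77.6, 74.5, 52.1 and 69.7 CPM to 98.9, 134, 114 and 111 CPM (0.74 ± 0.13, adjusted p = 0.0201). Its near-identical copy Gstp2 changed by 0.66 ± 0.14 (adjusted p = 0.048), and how the authors divided reads between the pair is not known. Srxn1, the sulfiredoxin that repairs oxidised peroxiredoxins, was at 98.95, 105, 127 and 95.1 CPM after ethanol and 74.8, 76.2, 73.9 and 75.8 CPM after CCl4, a narrow range that all ethanol libraries exceeded (0.50 ± 0.09, adjusted p = 0.0177). The 4th is Abcc3, described above. Hmox1, the inducible heme oxygenase and another Nrf2 target, was at 21.6, 53.3, 46.1 and 48.1 CPM after ethanol and 34.5, 38.4, 44.1 and 47.7 CPM after CCl4, and its log2 difference of 0.03 ± 0.26 was not called (adjusted p = 0.975). The order of the groups in Hmox1 depended on which libraries were kept. Mgst1 was called in all 8 fits without 1 library. The Gstp1 call was lost without CCl4 replicate 4 and EtOH replicate 3 (adjusted p = 0.0647 to 0.068). The Srxn1 call was lost without CCl4 replicate 3 and CCl4 replicate 4 (adjusted p = 0.0536 to 0.0593). The Gstp2 call was lost in each of the 8 (adjusted p = 0.0603 to 0.143).

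The promoter of Mgst1 (RefSeq, GRCm38.p6, chr6:138140277-138140576, + strand) is shown as the member of the list with the largest called change. Capitals mark a match to TGACNNNGC, the core letters of the antioxidant response element, on either strand.

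Mgst1: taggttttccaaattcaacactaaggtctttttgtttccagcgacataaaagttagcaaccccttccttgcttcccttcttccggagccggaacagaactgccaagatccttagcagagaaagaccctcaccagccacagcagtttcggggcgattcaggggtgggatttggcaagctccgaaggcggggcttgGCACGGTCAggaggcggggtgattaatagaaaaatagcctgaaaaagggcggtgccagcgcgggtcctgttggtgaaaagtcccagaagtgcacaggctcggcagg

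The match reads on the minus strand and starts 56 bases before the start of transcription. TGACNNNGC was found in 12.4% of all promoters and in 14.3% of those of tested genes. It was found in 8 of the 90 of genes called higher and in 12 of the 116 of genes called lower. Neither share is above that of all promoters or of tested genes.

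The enzymes that oxidise ethanol and acetaldehyde changed in few members. Aldh1a1, a retinal and acetaldehyde dehydrogenase, was at 42.99, 52.2, 59.03 and 64.1 CPM after ethanol and 34.7, 29.2, 18.1 and 23.7 CPM after CCl4, with no overlap (1.04 ± 0.20, adjusted p = 0.0398). Aldh3a2, the fatty aldehyde dehydrogenase, was at 271.8, 287, 257.7 and 297 CPM after ethanol and 343, 375, 382 and 409.9 CPM after CCl4, and fell (-0.44 ± 0.07, adjusted p = 0.0154). Of the 14 tested members, 1 rose and 1 fell. Cyp2e1 itself was at 1162, 1254, 1177 and 1621 CPM after ethanol, 1719, 1742, 1824 and 2113 CPM after CCl4 and 1379, 1633 and 2663 CPM after olive oil. Its ethanol libraries were all lower than the CCl4 libraries, EtOH replicate 4 being the highest of them, and the log2 difference of -0.51 ± 0.12 missed the threshold (adjusted p = 0.0571). Against the 10-week libraries alone it passed (-0.60, adjusted p = 0.0411). Leaving out 1 library in turn, the Aldh3a2 call was lost without CCl4 replicate 4 and EtOH replicate 3 (adjusted p = 0.0521 to 0.0558). The Aldh1a1 call was kept only without CCl4 replicate 1, CCl4 replicate 3 and EtOH replicate 1 (adjusted p = 0.0681 to 0.124 in the others). Cyp2e1 passed in the fit without EtOH replicate 4, where the lowest of the 8 adjusted p values, 0.0104, was reached.

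Genes of secreted plasma proteins were called in both directions. Cp, the copper-carrying ferroxidase ceruloplasmin, rose from 101, 101, 113 and 89.7 CPM after CCl4 to 193, 250.4, 222 and 246 CPM after ethanol (1.17 ± 0.10, adjusted p = 0.000306). Serpina3n, an acute-phase inhibitor of serine proteases, stood at 14.2, 31.96, 21.5 and 27.2 CPM after ethanol and 4.21, 3.55, 6.25 and 5.93 CPM after CCl4 (2.25 ± 0.27, adjusted p = 0.00618). Both were higher in every ethanol library than in any CCl4 library, although the highest of the 3 olive oil libraries held 178 CPM of Cp and 10.8 CPM of Serpina3n. Cfi, the complement factor that cleaves C3b, fell from 15.5, 12.9, 9.66 and 10.2 CPM to 4.16, 4.502, 2.21 and 3.49 CPM (-1.75 ± 0.23, adjusted p = 0.00437). Itih2, a heavy chain of the hyaluronan-binding inter-alpha-trypsin inhibitor, fell from 17.7, 12.2, 15.8 and 17.7 CPM to 4.997, 7.003, 3.83 and 3.68 CPM (-1.70 ± 0.20, adjusted p = 0.00437). Thus 2 members of the acute-phase and complement list rose and 2 fell of 26 tested, with a median of 0.35. All 4 were called in each of the 8 fits without 1 library.

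Apoc3 entered by the rule for large changes, and Apoa4 and Apob were picked after their values were seen. Apoc3, which slows the clearance of triglyceride-rich particles, was at 21.03, 28.4, 33.4 and 26.1 CPM after ethanol and 9.76, 5.87, 4.95 and 4.35 CPM after CCl4 (2.12 ± 0.24, adjusted p = 0.00437). Apoa4 changed by 1.17 ± 0.18 (adjusted p = 0.0103) and Apob, the structural protein of these particles, by 0.39 ± 0.07 (adjusted p = 0.0218). Of other apolipoproteins, Apoa1 and Apoe were not called, with Apoa1 at 0.24 ± 0.38 (adjusted p = 0.838) and Apoe at -0.60 ± 0.13 (adjusted p = 0.0586). Apoc3 and Apoa4 kept their calls in all 8 fits without 1 library, and the Apob call was kept only without CCl4 replicate 4, EtOH replicate 1 and EtOH replicate 2 (adjusted p = 0.0522 to 0.0718 in the others). Rarres2, the chemoattractant chemerin, also picked for its small p, rose from 41.2, 44.8, 39.9 and 43.97 CPM to 84.01, 103, 93.6 and 78.1 CPM (1.08 ± 0.09, adjusted p = 0.000306). Lower were F13b, a carrier subunit of clotting factor XIII, at 112, 110.04, 103 and 109 CPM after ethanol and 178, 179, 174 and 169 CPM after CCl4 (-0.69 ± 0.06, adjusted p = 0.000306), and Pzp, a broad protease inhibitor of the alpha-2-macroglobulin family. Pzp was at 40.8, 61.5, 35.2 and 52.1 CPM after ethanol and 169, 136, 314 and 376 CPM after CCl4 (-2.40 ± 0.38, adjusted p = 0.0359), with a change of -2.87 against the 10-week and -1.69 against the 6-week libraries. F13b kept its call in the 8 fits and the Pzp call was kept only without CCl4 replicate 1 and CCl4 replicate 2 (adjusted p = 0.0591 to 0.119 in the others). Beside these genes, 8 liver markers, among them Alb and Ttr, summed to 293, 522, 367 and 387 CPM after ethanol and 353, 214, 245 and 302 CPM after CCl4, overlapping groups in which none of the 8 was called by edgeR's test (2 passed an unadjusted p under 0.05, DESeq2 and limma-voom called 0). All 8 liver markers had changes above 0, with a median of 0.48 against 0.0044 over all genes. The part of liver transcripts in the changes above was not tested.

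Cish, a feedback inhibitor of cytokine signalling that STAT5 induces, was among the 12 largest increases. It stood at 46.5, 75.9, 59.8 and 24.5 CPM after ethanol, 14.7, 11.9, 8.72 and 9.31 CPM after CCl4 and 54.3, 14.6 and 12.02 CPM after olive oil. All ethanol libraries exceeded the CCl4 libraries, but EtOH replicate 4 was the lowest of them and olive oil replicate 1 lay within their range. The log2 change was 2.20 ± 0.35 (adjusted p = 0.0291), and the Cish call was kept only without EtOH replicate 2 and EtOH replicate 4 (adjusted p = 0.0527 to 0.105 in the others). Its promoter (RefSeq, GRCm38.p6, chr9:107296409-107296708, + strand) is shown with matches to TTCNNNGAA, the letters bound by STAT dimers, in capitals.

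Cish: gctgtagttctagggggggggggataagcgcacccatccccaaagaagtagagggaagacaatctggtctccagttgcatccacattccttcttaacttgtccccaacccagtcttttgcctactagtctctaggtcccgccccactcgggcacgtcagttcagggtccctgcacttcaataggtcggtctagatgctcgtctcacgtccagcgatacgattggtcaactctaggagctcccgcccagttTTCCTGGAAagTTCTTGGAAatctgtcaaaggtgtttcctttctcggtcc

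There are 2 such matches, at the start of transcription and 11 bases after it. TTCNNNGAA was found in 8.30% of all promoters and in 7.10% of those of tested genes. It was found in 7 of the 90 of genes called higher and in 7 of the 116 of genes called lower.

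Other genes in the 12 largest increases belonged to varied processes. Mchr1, a receptor of melanin-concentrating hormone, rose from 0.415, 0.592, 0.236 and 0.242 CPM to 1.73, 2.701, 1.67 and 2.35 CPM (2.45 ± 0.34, adjusted p = 0.00637). Mmp3, the matrix protease stromelysin-1, rose from 1.92, 1.92, 2.18 and 1.51 CPM to 4.01, 10.7, 5.21 and 6.21 CPM (1.78 ± 0.29, adjusted p = 0.0145), and Reep6, a protein that shapes the endoplasmic reticulum, from 71.5, 57.8, 26.7 and 49.8 CPM to 113, 167, 171 and 154 CPM (1.55 ± 0.28, adjusted p = 0.0476). In these 3 genes EtOH replicate 4 lay among the other ethanol libraries. Ly6f changed by 1.69 ± 0.30 (adjusted p = 0.0196) at levels of 1.33 to 1.96 CPM after ethanol. Peg10, an imprinted retrotransposon-derived gene, was at 9.203, 7.703, 8.103 and 0.824 CPM after ethanol and 0.519, 0.592, 0.5303 and 0.665 CPM after CCl4 (3.48 ± 0.66, adjusted p = 0.0431). Acsbg1, a very-long-chain acyl-CoA synthetase, was at 8.06, 7.75, 10.9 and 1.97 CPM after ethanol and 1.09, 0.7401, 1.53 and 1.45 CPM after CCl4 (2.58 ± 0.48, adjusted p = 0.0339). In both, as in the kinesin Kif1a (5.54, 4.002, 6.68 and 1.84 CPM after ethanol, 1.04, 0.937, 1.59 and 1.39 CPM after CCl4, 1.87 ± 0.37, adjusted p = 0.0322), EtOH replicates 1 to 3 were high and EtOH replicate 4 stood only just above the CCl4 libraries, the order of the adrenal markers; the part of adrenal RNA was not tested. Trank1 was at 2.97, 5.25, 7.56 and 1.52 CPM after ethanol and 0.519, 0.296, 1.06 and 0.181 CPM after CCl4 (3.07 ± 0.60, adjusted p = 0.0407), again with EtOH replicate 4 the lowest ethanol library. Mchr1 kept its call in the 8 fits without 1 library. The Mmp3 call was lost without CCl4 replicate 4 (adjusted p = 0.0575). The Reep6 call was kept only without CCl4 replicate 1 and CCl4 replicate 3 (adjusted p = 0.0605 to 0.147 in the others). The Ly6f call was lost without CCl4 replicate 2, CCl4 replicate 4 and EtOH replicate 3 (adjusted p = 0.063 to 0.0676). The Peg10 call was kept only without EtOH replicate 4 (adjusted p = 0.0726 to 0.143 in the others). The Acsbg1 call was kept only without EtOH replicate 4 (adjusted p = 0.0647 to 0.105 in the others). The Kif1a call was kept only without EtOH replicate 4 (adjusted p = 0.0521 to 0.0997 in the others). The Trank1 call was kept only without CCl4 replicate 3 and EtOH replicate 4 (adjusted p = 0.0581 to 0.12 in the others).

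Among genes of antigen presentation, 3 of 17 tested were called, all lower after ethanol (0.817% of all genes). All 3 are of the class II branch, which shows peptides to CD4 T cells. Cd74, the invariant chain, was at 113, 167, 125 and 125 CPM after ethanol and 215, 205, 294 and 253 CPM after CCl4 (-0.87 ± 0.14, adjusted p = 0.0189). H2-Eb1, a class II beta chain, was at 42.6, 58.7, 45.97 and 46.9 CPM after ethanol and 82.5, 82.01, 131 and 89.7 CPM after CCl4 (-0.99 ± 0.16, adjusted p = 0.0218). Ciita, the master regulator of class II transcription, was at 4.403, 3.902, 4.71 and 4.63 CPM after ethanol and 7.43, 7.06, 11.02 and 6.59 CPM after CCl4 (-0.86 ± 0.18, adjusted p = 0.0413). The ethanol libraries were the lowest in all 3 genes, and the olive oil libraries lay among the CCl4 libraries or close to them. The class II chains H2-Aa (-0.99 ± 0.20, adjusted p = 0.0529) and H2-Ab1 (-0.67 ± 0.14, adjusted p = 0.054) were just over the threshold, while the class I chains H2-K1 and H2-D1 were not called. Against the 10-week CCl4 libraries alone 5 members were called lower, and against the 6-week libraries 0. The Cd74 call was lost without CCl4 replicate 4, EtOH replicate 3 and EtOH replicate 4 (adjusted p = 0.0505 to 0.0713). The H2-Eb1 call was lost without CCl4 replicate 4, EtOH replicate 1, EtOH replicate 3 and EtOH replicate 4 (adjusted p = 0.0581 to 0.0809). The Ciita call was lost in each of the 8 (adjusted p = 0.0627 to 0.1).

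The promoter of H2-Eb1 (RefSeq, GRCm38.p6, chr17:34305617-34305916, + strand) is shown with CCAAT, part of the conserved class II promoter module, in capitals on either strand.

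H2-Eb1: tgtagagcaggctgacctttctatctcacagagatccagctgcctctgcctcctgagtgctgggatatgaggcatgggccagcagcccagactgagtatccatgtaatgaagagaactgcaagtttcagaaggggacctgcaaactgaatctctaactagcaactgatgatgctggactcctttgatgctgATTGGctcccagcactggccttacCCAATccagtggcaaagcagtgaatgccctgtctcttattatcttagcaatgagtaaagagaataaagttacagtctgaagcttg

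Of the 2 matches, starting 59 and 35 bases before the start of transcription, the first reads on the minus strand. CCAAT was found in 37.4% of all promoters and in 37.05% of those of tested genes. It was found in 27 of the 90 of genes called higher and 39 of the 116 of genes called lower.

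Several further lower genes are known from leukocytes. Ccl5, a chemokine of T cells and other leukocytes, was at 0.495, 0.5502, 0.442 and 0.507 CPM after ethanol and 1.51, 1.38, 1.83 and 2.18 CPM after CCl4 (-1.77 ± 0.27, adjusted p = 0.0103), and was the called member of 24 tested in the list of NF-kB targets and cytokines. Flt3, a growth factor receptor of dendritic cell precursors, was at 0.297, 0.4002, 0.5402 and 0.824 CPM after ethanol and 1.92, 0.888, 2.89 and 2.18 CPM after CCl4 (-1.94 ± 0.42, adjusted p = 0.0468). Clec9a and Siglech, which mark conventional and plasmacytoid dendritic cells and were picked after their values were seen, changed by -1.24 ± 0.25 (adjusted p = 0.0322) and -2.57 ± 0.47 (adjusted p = 0.0219). All of these were under 6 CPM in each of the 8 libraries, and in bulk tissue fewer cells of a type and less RNA per cell cannot be told apart. Beside them, 12 T and NK cell markers summed to 4.304, 9.504, 4.03 and 5.96 CPM after ethanol and 8.57, 9.67, 11.6 and 10.9 CPM after CCl4, and 12 macrophage markers to 204, 321, 227 and 339.9 CPM and 211, 298, 546 and 349 CPM, both with overlap and with 0 members called by edgeR's test (4 of 9 and 2 of 12 tested passed an unadjusted p under 0.05; DESeq2 called 1 in each, and limma-voom 1 and 0). Of the 9 tested T and NK markers 0 had a change above 0, with a median of -1.03. In 2 of the 9 all ethanol libraries lay below all CCl4 libraries (4.79% of all genes). Of the 12 tested macrophage markers 4 had a change above 0, with a median of -0.29. The part of T, NK and macrophage cells in the class II and leukocyte genes was not tested. Lyve1, a hyaluronan receptor of lymphatic vessels and some macrophages, moved the other way, at 5.05, 6.102, 5.697 and 6.21 CPM after ethanol and 1.402, 2.02, 2.24 and 3.02 CPM after CCl4 (1.41 ± 0.22, adjusted p = 0.0114). Ccl5 and Lyve1 were called in all 8 fits without 1 library. The Flt3 call was kept only without CCl4 replicate 2 and EtOH replicate 4 (adjusted p = 0.0761 to 0.128 in the others). The Clec9a call was kept only without CCl4 replicate 1, CCl4 replicate 2 and EtOH replicate 2 (adjusted p = 0.0669 to 0.106 in the others). The Siglech call was kept only without CCl4 replicate 1 and EtOH replicate 3 (adjusted p = 0.0505 to 0.0668 in the others).

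The remaining large decreases included Mdk, the heparin-binding growth factor midkine, which fell from 20.7, 26.6, 25.2 and 17.4 CPM after CCl4 to 6.88, 5.702, 4.47 and 6.53 CPM after ethanol (-1.94 ± 0.17, adjusted p = 0.00045). The olive oil libraries, at 25.6, 34.9 and 9.11 CPM, spanned a wider range but stayed above the ethanol libraries. Dnah9, a heavy chain of the motor of motile cilia, had the largest decrease of the named genes, from 1.77, 1.38, 3.005 and 4.05 CPM to 0.445, 0.4002, 0.147 and 0.0634 CPM (-3.19 ± 0.51, adjusted p = 0.0121), and EtOH replicate 4 was its lowest library. Lipo1, a secreted lipase, fell from 52.1, 47.1, 89.1 and 96.2 CPM to 22.6, 24.7, 17.4 and 21.1 CPM (-1.73 ± 0.26, adjusted p = 0.0201), with the 6-week CCl4 libraries between the ethanol and the 10-week ones. The collagens Col6a6 (-1.83 ± 0.35, adjusted p = 0.0359) and Col14a1 (-0.68 ± 0.11, adjusted p = 0.0174) also fell, Col14a1 being the called member of 34 matrix and fibrosis genes tested. Trdn, a calcium-release protein of muscle (-2.47 ± 0.53, adjusted p = 0.048), and the sorting receptor Sorcs1 (-2.29 ± 0.48, adjusted p = 0.0414) fell at levels under 1 CPM after ethanol. Mdk and Dnah9 were called in all 8 fits without 1 library. The Lipo1 call was lost without EtOH replicate 1, EtOH replicate 3 and EtOH replicate 4 (adjusted p = 0.0581 to 0.0709). The Col6a6 call was kept only without CCl4 replicate 1 (adjusted p = 0.053 to 0.105 in the others). The Col14a1 call was lost without CCl4 replicate 4, EtOH replicate 1 and EtOH replicate 3 (adjusted p = 0.0531 to 0.0672). The Trdn call was kept only without EtOH replicate 2 (adjusted p = 0.0709 to 0.12 in the others). The Sorcs1 call was kept only without CCl4 replicate 1 and CCl4 replicate 2 (adjusted p = 0.0532 to 0.136 in the others).

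Among called genes outside the lists, Bdh1, Oxct1 and Acat1 were picked after their values were seen and belong to no list with a count. Bdh1, which oxidises 3-hydroxybutyrate, was at 105, 128, 98.9 and 98.1 CPM after ethanol and 168, 153, 175 and 177 CPM after CCl4 (-0.65 ± 0.09, adjusted p = 0.00637). Oxct1, which activates acetoacetate, was at 1319, 1481, 1341 and 1438 CPM after ethanol and 1724, 1971, 1888 and 1833 CPM after CCl4 (-0.41 ± 0.07, adjusted p = 0.0201). Acat1, which cleaves acetoacetyl-CoA, was at 686, 810.02, 714 and 776 CPM after ethanol and 968, 917, 1229 and 1191 CPM after CCl4 (-0.53 ± 0.10, adjusted p = 0.0317). In each the groups did not overlap and the olive oil libraries lay with CCl4 or above it. Bdh2, a related dehydrogenase, was not called, at -0.21 ± 0.07 (adjusted p = 0.178). Bdh1 kept its call in all 8 fits without 1 library. The Oxct1 call was kept only without CCl4 replicate 1, EtOH replicate 2 and EtOH replicate 4 (adjusted p = 0.0517 to 0.0672 in the others). The Acat1 call was kept only without CCl4 replicate 1, CCl4 replicate 2 and EtOH replicate 2 (adjusted p = 0.0592 to 0.1 in the others). In the lists of related metabolism, Me1, the malic enzyme that supplies NADPH for lipid synthesis, was the called member of 15 lipogenic genes tested (-0.49 ± 0.10, adjusted p = 0.0389), and Tm7sf2, a sterol reductase, of 23 cholesterol genes (0.48 ± 0.09, adjusted p = 0.0331). The lipogenic list had a median change of -0.35, with 1 of its 15 members above 0. In 2 of the 15 all ethanol libraries lay below all CCl4 libraries (4.79% of all genes), and in 0 above them (4.13%). The Me1 call was kept only without CCl4 replicate 1 (adjusted p = 0.0532 to 0.108 in the others). The Tm7sf2 call was kept only without CCl4 replicate 1 (adjusted p = 0.057 to 0.109 in the others). Of 30 fatty acid oxidation genes 0 were called, with 6 at an unadjusted p under 0.05, 3 by DESeq2 and 1 by limma-voom, and against the 10-week CCl4 libraries alone 4 were, 3 higher and 1 lower. Of 36 respiratory chain genes 0 were called (10 at an unadjusted p under 0.05, 4 by DESeq2 and 0 by limma-voom), while 14 had all ethanol libraries below all CCl4 libraries (4.79% of all genes) and 1 had them above (4.13% of all genes), with a median change of -0.07.

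Further called members of the lists were Ren1, Xbp1 and Alas1. Ren1, renin, was at 92.3, 74.4, 112 and 73.9 CPM after ethanol and 49.9, 45.05, 56.7 and 56.8 CPM after CCl4 (0.76 ± 0.14, adjusted p = 0.0291); the deposited counts of its paralog Ren2 differ from it by at most 5 per library, so the pair is one observation. Xbp1, a transcription factor of the unfolded protein response, rose from 114, 115, 130.4 and 118 CPM to 156, 206, 164 and 208 CPM (0.61 ± 0.10, adjusted p = 0.0134), the called member of 21 genes of that response tested. Alas1, the rate-limiting enzyme of heme synthesis, rose from 120.2, 145, 164 and 153 CPM to 218, 235, 369.8 and 375 CPM (1.04 ± 0.20, adjusted p = 0.046), so that with Cp 2 of 18 iron and heme genes rose. Beside them, erythroid and blood markers summed to 3041, 2924, 2972 and 3285 CPM after ethanol and 2465, 2209, 2932 and 2375 CPM after CCl4, with overlap. All 6 tested had changes above 0 and edgeR called 0 of them (4 at an unadjusted p under 0.05, 2 by DESeq2 and 0 by limma-voom). In 2 of the 6 all ethanol libraries lay above all CCl4 libraries (4.13% of all genes), as in 4 of the 18 iron and heme genes. In 0 of either list did they lie below (4.79%). The part of blood transcripts in the iron and heme genes was not tested. In Alas1 EtOH replicates 3 and 4 were higher than replicates 1 and 2, and the olive oil libraries (219, 212 and 184 CPM) lay above every CCl4 library and reached the lowest ethanol library. Xbp1 was called in all 8 fits without 1 library. The Ren1 call was kept only without EtOH replicate 2, EtOH replicate 3 and EtOH replicate 4 (adjusted p = 0.0594 to 0.075 in the others). The Alas1 call was kept only without EtOH replicate 1 and EtOH replicate 2 (adjusted p = 0.0726 to 0.127 in the others).

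No marker of tubule injury passed the test. Havcr1, the injury marker Kim-1, was at 5.59, 4.302, 3.39 and 5.01 CPM after ethanol and 5.92, 5.08, 6.54 and 16.2 CPM after CCl4, overlapping groups with CCl4 replicate 4 far above the rest (-0.88 ± 0.37, adjusted p = 0.314). Lcn2, the iron-siderophore-binding protein NGAL, was at 10.98, 18.5, 12.9 and 28.8 CPM after ethanol and 5.66, 2.66, 6.95 and 9.49 CPM after CCl4, without overlap and not called (1.52 ± 0.42, adjusted p = 0.142). Its highest value was that of EtOH replicate 4, the library with the most neutrophil marker RNA. Timp1, an inhibitor of matrix proteases, was at 2.33, 12.1, 4.47 and 6.72 CPM after ethanol and 0.779, 1.48, 3.06 and 1.63 CPM after CCl4, with overlap (1.88 ± 0.55, adjusted p = 0.151). Of the 23 tested genes of the injury list edgeR called 0 (5 at an unadjusted p under 0.05, 3 by DESeq2, all higher, and 0 by limma-voom). In 2 of the 23 all ethanol libraries lay above all CCl4 libraries (4.13% of all genes), and in 0 below them (4.79%). The cell cycle list had a median change of -0.57 over 25 genes, with 6 below every CCl4 library (4.79% of all genes) and 0 called by edgeR (12 at an unadjusted p under 0.05, 7 by DESeq2, all lower, and 0 by limma-voom), though 3 were called lower against the 10-week libraries alone. No member was called of 28 interferon-response genes (1 at an unadjusted p under 0.05, 0 by DESeq2 or limma-voom, 1 lower against the 10-week libraries alone), 20 p53 targets (4, and 0 by DESeq2 or limma-voom) or 19 immediate early genes (1, and 0 by DESeq2 or limma-voom).

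**Figure D4:**
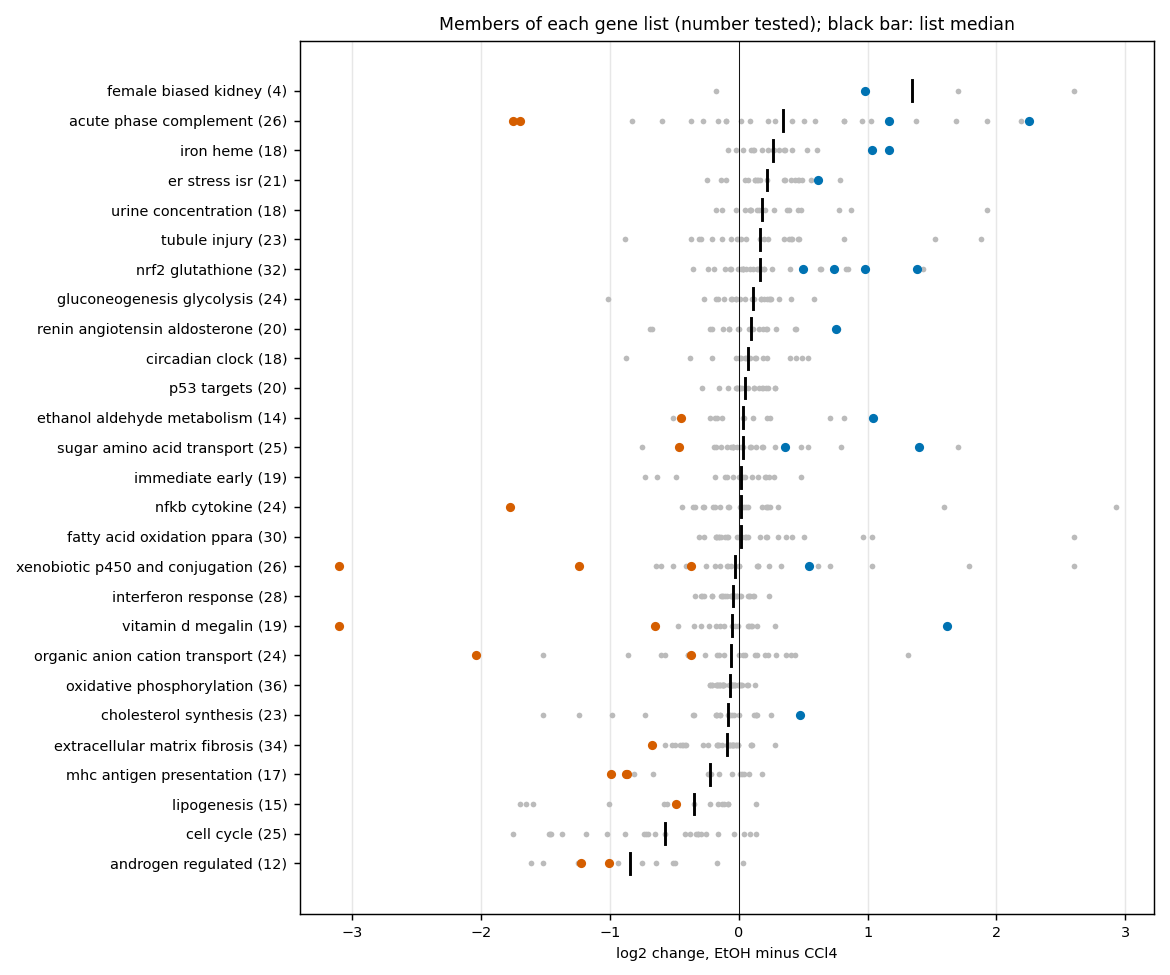
Change (log2, ethanol minus CCl4) of every tested member of the 27 pathway lists, with the number tested in brackets; blue and orange points were called higher and lower, grey points were not called, and black bars are list medians. The medians run from -0.84 for androgen-regulated genes to 1.34 for the 4 female-biased genes.

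Of the adrenal transcripts, kept apart from the kidney genes, none of those tested was called, and many were too low to be tested. All 8 tested cortex markers were higher on average after ethanol, with a median log2 difference of 5.18, yet none was called (7 at an unadjusted p under 0.05, 6 by DESeq2 and 0 by limma-voom) and EtOH replicate 4 lay at the CCl4 level. Cyp21a1 differed by 7.31 ± 1.88 (adjusted p = 0.143). Across the whole table, 27 genes were more than 10 times higher in each of EtOH replicates 1 to 3 than in EtOH replicate 4 and every CCl4 library. Of them, 14 were on the adrenal lists. The expression filter left 9 of the 27 to be tested, and 0 of these were called. Together the 27 made up 1159, 930.0 and 1526 CPM in EtOH replicates 1 to 3, 11.9 CPM in replicate 4 and at most 32.6 CPM in a CCl4 library. Without EtOH replicate 4, 7 of the 8 cortex markers were called. Of the 10 medulla markers 3 were tested, and edgeR called 0 in the pooled comparison (2 at an unadjusted p under 0.05, 2 by DESeq2 and 1 by limma-voom). Chga and the enzymes Th and Pnmt, which define chromaffin cells of the medulla, were at or near 0 in all CCl4 libraries.

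The 10-week CCl4 libraries, matched to ethanol in total time, and the 6-week libraries gave different numbers of calls. Against the 10-week pair 390 genes were called (2.55%), 136 higher (0.889%) and 254 lower (1.66%). Against the 6-week pair 124 were called (0.81%), 49 higher (0.32%) and 75 lower (0.49%). Of the 218 genes of the pooled comparison, 164 (75.2%) were called against the 10-week and 85 (39.0%) against the 6-week libraries, and all 218 changed in the same direction in both, as the absence of overlap in the pooled libraries fixes. Between the schedules themselves edgeR called 0 genes, with 1612 at an unadjusted p under 0.05, so a difference between the schedules was not shown for any gene. The values for Lipo1 were -2.12 (adjusted p = 2.9e-05) and -1.21 (adjusted p = 0.0013), those for Gc 2.04 (adjusted p = 0.000828) and 1.29 (adjusted p = 0.00875), and those for Mdk -1.86 (adjusted p = 0.0013) and -2.01 (adjusted p = 0.0013). Cyp27b1 passed against neither pair, at -2.84 (adjusted p = 0.0509) and -3.32 (adjusted p = 0.0532).

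**Figure D5:**
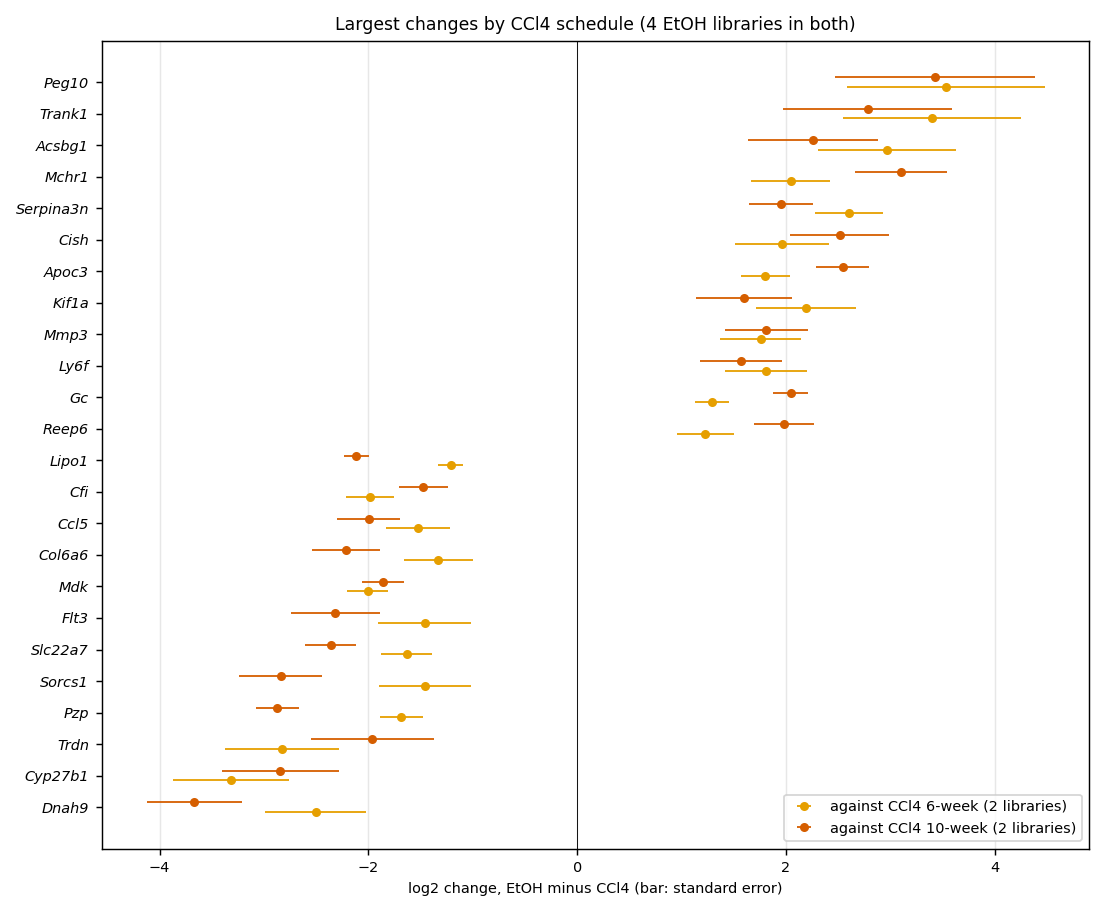
Change (log2, ethanol minus CCl4, with standard error) of the 24 genes with the largest called changes, against the 10-week (dark orange) and the 6-week CCl4 libraries (light orange), 2 libraries each. All 24 genes keep their direction, and Lipo1 lies at -2.12 and -1.21.

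The olive oil libraries, which took no part in choosing the genes, lay mostly on the CCl4 side. In 102 of the 125 genes lower after ethanol (81.6%), all 3 olive oil libraries were above all 4 ethanol libraries, an order found in 6.14% of all genes tested. In 10 of the 125 (8%) they were below all 4 CCl4 libraries, against 3.58% of all genes, and 4 genes met both conditions. In 62 of the 93 genes higher after ethanol (66.7%), the olive oil libraries were below all ethanol libraries, against 5.88% of all genes, and in 13 (13.98%) they were above all CCl4 libraries, against 3.65%, with 4 genes in both counts. The olive oil mean was nearer to the CCl4 mean in 115 of the 125 lower genes (92.0%) and in 67 of the 93 higher genes (72.04%), compared with 57.1% of all genes. All called genes had ethanol outside the CCl4 range, which by itself favours such an order for a gene in which olive oil equals CCl4, and the olive oil mice lacked the 4 further weeks of the ethanol mice. Akr1d1 shows the common order, with olive oil at 52.7, 45.6 and 67.1 CPM beside CCl4 at 65.6, 58.4, 56.6 and 60.8 CPM. Alas1 shows the rarer one, with olive oil above every CCl4 library.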

How the data were processed

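The authors deposited 1 table of raw read counts per gene symbol for 14 libraries, per the file header; reads were aligned with GSNAP to mm9, per the submitters' processing notes, and the sources used here do not give the counting program, annotation or strand setting. Groups came from the labels of the samples. Of 23893 rows, 27 whose gene names had become dates (0.168% to 0.182% of counts in the 8 libraries) were dropped. The 4 ethanol and 4 CCl4 libraries were fitted with edgeR 4.0.16 in R 4.3.3: filterByExpr left 15300 genes, scaling was by TMM, and the quasi-likelihood test was adjusted by Benjamini-Hochberg over all genes, with a threshold of 0.05. The fit used these 8 libraries only. The reason was an earlier analysis, in which the libraries given both agents differed strongly among themselves, a spread not measured here. A fit of all 14 was an alternative, as were DESeq2 1.42.0, limma-voom 3.58.1 and other scalings and filters. Each CCl4 schedule, a block for title numbers, an adrenal covariate and leaving out each library were further alternatives. The script was tested on simulated data. CPM values are scaled over the 14 libraries. Each standard error was obtained by dividing the change by the root of its F statistic.

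Replicates differed by more than counting noise, so none were merged. Total counts of 16356512 to 20807603 limit the precision of genes under about 1 CPM. The text names the 12 largest called changes in each direction with a mean of at least 1 CPM, no overlap between groups, a gene name that is not a clone or predicted name and no place on the adrenal or adipocyte lists, up to 4 members of each of 43 lists, and a few genes chosen by hand. The genes and lists were chosen with earlier results of these data known. Promoters are from RefSeq, GRCm38.p6, whereas the authors' build was mm9.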

Additional observations from a re-analysis of the deposited data

Results flagged for a closer look

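Over 76 named genes and both groups of 4 libraries, 152 groups were examined for a library that stands apart, and 6 had one by Dixon's test, where chance alone flags about 1 group in 20. After CCl4, H2-Eb1 was highest at 131 CPM in replicate 3, Cyp21a1 at 3.89 CPM in replicate 3, Havcr1 at 16.2 CPM in replicate 4 and Apoa4 at 10.3 CPM in replicate 1. After ethanol, Slc5a8 was highest at 396 CPM in replicate 2 and Ly6f at 1.96 CPM in replicate 3. The Cyp21a1 value is the trace of adrenal RNA in CCl4 replicate 3, in which the cortex markers summed to 36.2 CPM, and the Havcr1 value belongs to a gene that was not called.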

How the results depend on the processing

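The 218 calls (93 higher, 125 lower) stood at 218 with DESeq2's size factors or with scaling free of adrenal markers, and none of the 218 changed sign under any of the 21 alternatives, a direction that the absence of overlap largely fixes. The numbers of calls, higher and lower, were 734, 289 and 445 with DESeq2, 334, 126 and 208 with limma-voom, and 84, 44 and 40 with all 14 libraries. They were 390, 136 and 254 against the CCl4 10-week libraries, and 124, 49 and 75 against the 6-week libraries. Blocking on whether a title number was under 270 gave 411, 154 and 257. Numbers under 270 belonged to CCl4 replicates 1 and 2 and to EtOH replicate 1. Within CCl4 this block is therefore the same split as the schedule. The adrenal covariate gave 5, 4 and 1, and EtOH replicate 4 as the lone ethanol library, assumed to vary like the CCl4 libraries, 9, 7 and 2. Leaving out 1 library gave 97 to 220 calls, 47 to 106 higher and 50 to 122 lower. The cause of these shifts was not tested, beyond the fewer libraries in the fits that left some out. The fit with the adrenal covariate kept all 8 libraries. Its covariate was high in EtOH replicates 1 to 3 alone and so nearly followed the groups. The few calls of that fit do not measure the part of adrenal RNA. The share of higher calls, 42.7%, became 80.0% with the adrenal covariate, 77.8% with EtOH replicate 4 alone and 57.6% without that library. Of the 64 called genes named in the text, DESeq2 called 64, limma-voom 56 and the fit of all 14 libraries 30, and 23 were called in all 8 fits without 1 library. Changes of sign were seen in 2 genes that were not called. Hmox1 was at -0.13 against the 10-week libraries, -0.19 with the title number block and -0.098 to 0.25 without 1 library; the cause was not tested. Cyp21a1 was at -3.64 with the adrenal covariate, which is built from it, and at -7.14 with EtOH replicate 4 alone, the library without its counts. No paired analysis was possible because every mouse has a number of its own in the labels and the replicate numbers used here only name the libraries. At this depth, differences in genes under 1 CPM after ethanol, such as Trdn or Siglech, rest on few counts per library.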
